A study of Mus musculus with 6 samples.

Results

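The IGF binding proteins are the 7 genes with the symbols Igfbp1 to Igfbp7, taken by symbol from the 30631 genes listed for each of 6 RNA sequencing libraries. All 7 were listed in every library, and 6 passed the filter on low values, a normalized count of 10 or more in 3 or more of the libraries (17034 genes passed it). The cells were sinoatrial node-like cardiomyocytes, that is, cells resembling the heart's pacemaker, grown from mouse embryonic stem cells in hanging drops and sorted for the surface protein CD166. Of the libraries, 3 are labelled Shox2-/-, homozygous mutant for the homeodomain factor Shox2, and 3 are labelled wild type (Shox2+/+). Both were sorted at stage 7+1 days, and both lines had been kept on mouse embryonic fibroblasts beforehand. The Shox2-/- titles all start with the same clone-like code (J2), while each wild type title has its own code, so effects of genotype and of clone cannot be told apart. Nothing in the labels says that libraries of a group came from separate cultures, and p-values therefore measure only the spread between these libraries, which may be technical.

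Insulin-like growth factors are small secreted peptides that act through the type 1 receptor on growth, survival and differentiation. The IGF binding proteins are secreted proteins that hold these peptides with high affinity, carry them, keep them from the receptor or release them near it when proteases cut the binding protein. In the developing heart the epicardium and endocardium are sources of the ligand Igf2, and the binding proteins differ in the tissues that make them.

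The libraries held between 13504683 and 34650564 reads assigned to genes, and library 1 was the shallowest of each group. Reads of Shox2 itself were 201, 548 and 373 normalized counts in libraries 1, 2 and 3 labelled Shox2-/-, against 89.6, 83.4 and 31.4 in those labelled wild type, higher and not lower. The construction of the mutant allele is not given in the sources used here, and all directions below compare labels. Alcam, the gene of the sorting protein CD166, was at 4176.5, 5312 and 4304 normalized counts in libraries 1, 2 and 3 labelled Shox2-/-. Those labelled wild type had 6591, 6526 and 5841, all of them higher (log2 change -0.465, limma adjusted p = 0.242). Of all genes tested, 10.8% lay entirely lower in libraries labelled Shox2-/-. All 12 cardiomyocyte and all 8 pacemaker markers passed the filter, which asks only for a low level. The troponin gene Tnnt2 was at 1332 to 2902 normalized counts in libraries labelled Shox2-/- and 1712 to 2155 in those labelled wild type. Nkx2-5, named after its values were seen, was at 20.6 to 64.4 in libraries labelled Shox2-/- and 18.8 to 36.5 in those labelled wild type. These levels do not say what part of the cells were of the labelled type. Libraries 1 and 2 labelled wild type were nearly alike in the 6 members that passed the filter, whereas library 3 labelled wild type stood apart from them in most. Changes are therefore also given without library 3 labelled wild type. In sorted populations like these, fewer cells of a type and less RNA per cell cannot be told apart.

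The family is recognised by a cysteine-rich amino-terminal domain with a run of alternating glycine and cysteine (glycine, cysteine, glycine and a cysteine pair), shown here because it separates the 5 members that carry it in full from Igfbp6 and Igfbp7. The coding bases come from the longest coding transcript of each gene in GENCODE M21 (GRCm38), are written 5′ to 3′, and have the codons of that run in capitals.
Igfbp1: gcaGGCTGTGGCTGCTGCccgacatgt
Igfbp2: cccGGCTGCGGCTGCTGCtccgtgtgc
Igfbp3: cccGGCTGCGGCTGCTGCctgacttgc
Igfbp4: ccaGGCTGCGGTTGTTGCgccacttgc
Igfbp5: cccGGCTGTGGCTGCTGCatgacttgc
Igfbp7: gacGCGTGCGGGTGCTGCccggtgtgt
In Igfbp7, which binds IGFs weakly and is also known for roles outside IGF binding, the first codon in capitals does not encode glycine, so the full run is missing. In Igfbp6, which prefers IGF2 as its ligand, no such stretch was found and none is printed. The predicted proteins had 238 residues for Igfbp6 up to 313 for Igfbp7, and 16 to 20 cysteines each. Igfbp1 and Igfbp2 were the members with an Arg-Gly-Asp tripeptide, a known integrin-binding sequence, and each had 1.

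In the mm10 assembly 4 of the members lie as neighbouring pairs that point toward each other. Igfbp2 (ENSMUSG00000039323, chromosome 1, 72824503 to 72852474, plus strand) ends 5457 bases before Igfbp5 (ENSMUSG00000026185, chromosome 1, 72857932 to 72874884, minus strand). Igfbp1 (ENSMUSG00000020429, chromosome 11, 7197782 to 7202546, plus strand) ends 3539 bases before Igfbp3 (ENSMUSG00000020427, chromosome 11, 7206086 to 7213923, minus strand). Igfbp4 (ENSMUSG00000017493) lies on chromosome 11 from 99041244 to 99054392, plus strand. The other two are Igfbp6 (ENSMUSG00000023046, chromosome 15, 102144362 to 102149511, plus strand) and Igfbp7 (ENSMUSG00000036256, chromosome 5, 77349240 to 77408041, minus strand). A gene-level count does not say which exon or untranslated region a read came from. Igfbp7 shares 85 bases at its 3′ end with Polr2b, an RNA polymerase II subunit gene on the opposite strand, and no source used here says whether reads were counted by strand.

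Promoter windows of 300 bases (250 before to 50 after the start site, RefSeq, GRCm38.p6) were available for all 7 members. They are printed for Igfbp5, Igfbp3 and Igfbp1, the members whose 2 groups of libraries did not overlap, and for Igfbp4, the member with the highest mean level per kilobase in both groups, whose libraries did. Capitals mark matches, on either strand, to any of 3 TATA-box-like motifs that are spelled out after the windows.
Igfbp5, chr1:72874816-72875115, minus strand: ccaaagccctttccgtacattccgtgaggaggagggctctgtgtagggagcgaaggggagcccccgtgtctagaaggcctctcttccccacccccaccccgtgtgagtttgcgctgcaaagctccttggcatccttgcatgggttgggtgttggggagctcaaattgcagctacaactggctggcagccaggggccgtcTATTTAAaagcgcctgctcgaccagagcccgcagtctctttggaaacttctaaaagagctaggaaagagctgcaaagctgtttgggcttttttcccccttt
Igfbp3, chr11:7213874-7214173, minus strand: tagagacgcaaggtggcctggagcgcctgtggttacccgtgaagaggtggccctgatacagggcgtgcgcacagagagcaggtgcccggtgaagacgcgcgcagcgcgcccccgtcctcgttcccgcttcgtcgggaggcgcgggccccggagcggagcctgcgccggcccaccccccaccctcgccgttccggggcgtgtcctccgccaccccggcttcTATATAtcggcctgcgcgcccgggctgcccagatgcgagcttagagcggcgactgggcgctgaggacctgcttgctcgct
Igfbp1, chr11:7197537-7197836, plus strand: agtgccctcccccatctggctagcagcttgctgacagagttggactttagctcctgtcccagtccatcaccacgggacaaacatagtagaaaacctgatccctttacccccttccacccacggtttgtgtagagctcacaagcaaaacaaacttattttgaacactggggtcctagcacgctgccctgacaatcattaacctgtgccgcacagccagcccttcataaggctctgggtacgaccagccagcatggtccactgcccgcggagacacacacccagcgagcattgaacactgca
Igfbp4, chr11:99040994-99041293, plus strand: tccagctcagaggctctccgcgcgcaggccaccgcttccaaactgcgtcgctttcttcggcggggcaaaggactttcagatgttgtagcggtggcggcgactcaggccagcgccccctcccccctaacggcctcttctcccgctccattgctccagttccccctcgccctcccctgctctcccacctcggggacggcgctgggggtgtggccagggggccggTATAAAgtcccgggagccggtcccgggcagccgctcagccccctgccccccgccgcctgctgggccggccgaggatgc
TATATA began 30 bases before the start site of Igfbp3, TATAAA 28 bases before that of Igfbp4, and TATTTAA 51 bases before that of Igfbp5. Igfbp6 held TATAAA on the other strand, 148 bases before its start site, and no match overlapped another. Over all 32851 windows of this length, 5.67% held TATATA, 13.6% held TATAAA and 4.51% held TATTTAA. The GC box GGGCGG, which 35.7% of windows held on either strand, was found 3 times in the window of Igfbp2 and 4 times in that of Igfbp7 and in no other member. The homeodomain core TAATTA, held by 5.29% of windows, was in none of the 7 windows. These are descriptions of letters in a window, and say nothing of what binds there.

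Between the genotypes, 3 of the 6 members that passed the filter were lower in every library labelled Shox2-/- than in any labelled wild type. Igfbp5, Igfbp3 and Igfbp1 each had all 3 libraries labelled Shox2-/- below all 3 labelled wild type, whereas Igfbp2, Igfbp4 and Igfbp7 overlapped. Among all 17034 genes tested, 10.8% lay entirely lower in this way and 12.8% entirely higher, where there were 0 members. With limma on log2(normalized count + 1), 0 of 6 members and 0% of all genes passed an adjusted p of 0.05, while 2411 genes had an unadjusted p under 0.05. The same 3 members had an unadjusted limma p under 0.05 in the lower direction, which 7.23% of all genes had, and 0 members had one in the higher direction, which 6.92% of all genes had. The median log2 change was -0.98 over the 6 members and 0.01 over all genes tested.

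**Figure D1:**
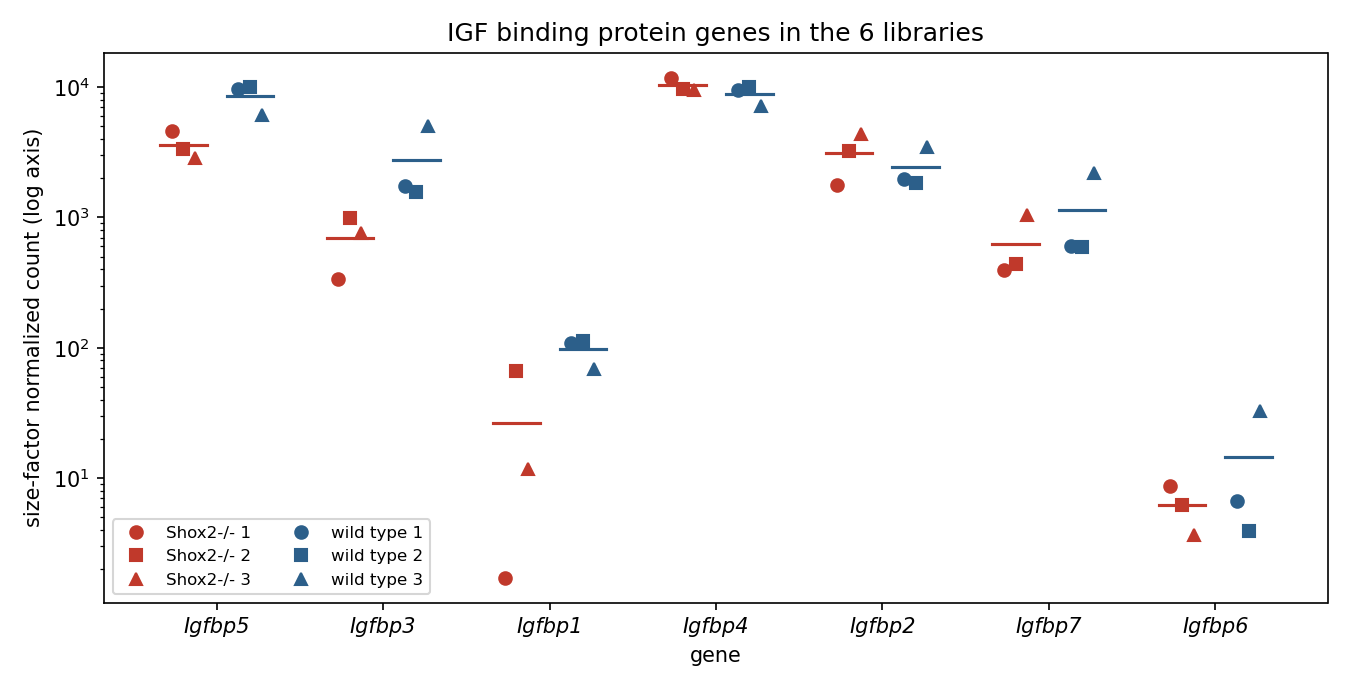
Size-factor normalized counts (log axis) of the 7 IGF binding protein genes, with 3 libraries labelled Shox2-/- (red, left) beside 3 labelled wild type (blue, right) for each gene. Symbols mark library numbers and lines the group means; Igfbp5, Igfbp3 and Igfbp1 show no overlap between groups, and library 3 labelled wild type is the highest of all 6 for Igfbp3, Igfbp7 and Igfbp6.

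Igfbp5, a strongly conserved member that binds extracellular matrix as well as IGFs, had the smallest standard error of these 3. It was at 4626, 3316 and 2829 normalized counts in libraries 1, 2 and 3 labelled Shox2-/-, against 9620, 9926 and 6114 in those labelled wild type. The lowest library labelled wild type was thus above the highest labelled Shox2-/-, and library 3 was the lowest within each group. The means were 3591 ± 929 (SD, n = 3) in libraries labelled Shox2-/- and 8553 ± 2118 (SD, n = 3) in those labelled wild type, a 2.38-fold lower level in libraries labelled Shox2-/-. The log2 change was -1.25 (SE 0.24, 95% interval -1.82 to -0.68) with a limma adjusted p of 0.190 and an unadjusted one of 0.00114. Leaving out any 1 library gave log2 changes of -1.48 (without library 3 labelled wild type) to -1.09. Limma voom with sample quality weights was run on reads recovered from the normalized counts. It gave weights of 3.595 and 4.224 to libraries 1 and 2 labelled wild type and 0.206 to library 3. It called Igfbp5 lower (log2 change -1.51, limma voom adjusted p = 0.00960, where the 15 alternatives ranged up to 0.523). This setting called 303 of 17034 genes, against 0 in the main fit. Libraries 1 and 2 labelled wild type are nearly alike and share a title number, so the spread between them may be technical. The study, as remembered, named Igfbp5 as a gene that depends on Shox2 and relied partly on these libraries, so its direction is not independent evidence.

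Igfbp3, the main carrier of IGFs in blood and a protein with effects of its own on growth arrest, was lower by more, with a wider spread. Libraries 1, 2 and 3 labelled Shox2-/- had 337, 994 and 759 normalized counts, against 1733, 1559 and 5003 in those labelled wild type. Library 3 labelled wild type was 3.04 times the mean of libraries 1 and 2, and library 1 labelled Shox2-/- was the lowest of all. The means were 697 ± 333 (SD, n = 3) in libraries labelled Shox2-/- and 2765 ± 1940 (SD, n = 3) in those labelled wild type, a 3.97-fold lower level in libraries labelled Shox2-/-. The log2 change was -1.91 (SE 0.53, 95% interval -3.16 to -0.66; limma adjusted p = 0.252, unadjusted 0.00839). Without library 3 labelled wild type it was -1.37 (limma adjusted p = 0.2535).

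Igfbp1, which in adults is made by the liver and induced by fasting and hypoxia, was the lowest of the 3 by level. It had 1.73, 66.1 and 11.85 normalized counts in libraries 1, 2 and 3 labelled Shox2-/-, from 1, 74 and 16 reads. Those labelled wild type had 109.5, 112.8 and 69.1, from 66, 173 and 88 reads. Library 2 labelled Shox2-/- lay just under library 3 labelled wild type, and their exact Poisson 95% intervals, which cover counting error only, were 51.9 to 83.0 and 55.4 to 85.1, so these 2 libraries were not separated at this depth. The single read of library 1 labelled Shox2-/- allows a normalized count from 0.0438 to 9.64. The mean was 26.6 ± 34.6 (SD, n = 3) in libraries labelled Shox2-/- and 97.1 ± 24.3 (SD, n = 3) in those labelled wild type. The log2 change of -2.85 had an SE of 1.03 (95% interval -5.26 to -0.44; limma adjusted p = 0.303, unadjusted 0.0263). It was -4.02 without library 2 labelled Shox2-/-, -1.71 without library 1 labelled Shox2-/- and -3.08 without library 3 labelled wild type, and its unadjusted limma p stayed under 0.05 in 2 of the 6 settings that left out a library.

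Marker lists of other cell types are given beside these members. Of 12 endoderm and liver progenitor markers 11 passed the filter, 9 lower and 2 higher in libraries labelled Shox2-/-. Their summed level was 901, 7616 and 2497 normalized counts in libraries 1, 2 and 3 labelled Shox2-/-, against 8325, 7542 and 10782 in those labelled wild type, and 0 of the markers were at 0 throughout a group. The order among the libraries labelled Shox2-/- was that of Igfbp1, with library 2 highest and library 1 lowest. Igfbp3 and the epithelial and endothelial sums given below had this order too, so it is not particular to endoderm markers or to Igfbp1. Alpha-fetoprotein (Afp) was at 70.9, 729 and 582 in libraries 1, 2 and 3 labelled Shox2-/-, against 1490, 1429 and 7020 in those labelled wild type. Of 13 mesenchyme and fibroblast markers 12 passed, 8 lower and 4 higher, with a summed level of 190165 to 286811 in libraries labelled Shox2-/- and 379889 to 603422 in those labelled wild type, and again 0 markers at 0 throughout a group. The collagen gene Col3a1 alone held 106540 to 177188 of this sum in libraries labelled Shox2-/- and 217111 to 333969 in those labelled wild type. A sum without the collagen genes is not given. Of the 12 markers, 6 lay entirely lower and 1, Twist1 (log2 change 0.99), entirely higher. Pdgfrb (0.25), Prrx1 (0.21) and Pdgfra (0.05) were higher on average and overlapped. The 8 epithelial markers were all lower on average, with a summed level of 5865, 16072 and 6816 in libraries 1, 2 and 3 labelled Shox2-/-, against 13313, 11971 and 8718 in those labelled wild type. The cardiomyocyte markers came to 14981 to 39125 in libraries labelled Shox2-/- and 11750 to 32670 in those labelled wild type, lowest in library 3 labelled wild type. Of 8 smooth muscle markers 5 were lower and 3 higher, and the summed level overlapped, at 40671 to 51592 in libraries labelled Shox2-/- and 45395 to 51709 in those labelled wild type. Its members Myh11 (log2 change -1.57), Des (-0.99) and Cnn1 (-0.76), contractile or filament genes named after their values were seen, had all libraries labelled Shox2-/- below all labelled wild type. Of 8 pacemaker markers, a list that includes Shox2 itself, 6 were higher and 2 lower. Their summed level was 5200 to 6675 in libraries labelled Shox2-/- and 3353 to 4065 in those labelled wild type. Gjc1 alone had 2745 to 3892 in libraries labelled Shox2-/- and 1771 to 2247 in those labelled wild type. The 3 that lay entirely higher were Shox2, Isl1 and Gjc1, and 1, the transcription factor gene Tbx18, lay entirely lower. The endothelial sum was 8068, 12448 and 11836 in libraries 1, 2 and 3 labelled Shox2-/-, against 14365, 14406 and 3609 in those labelled wild type. By summed level, library 3 labelled wild type was thus the lowest in endothelial markers and the highest in mesenchyme and endoderm markers. Single markers did not all follow these sums. Afp alone made up 7020 of the endoderm sum of 10782 in that library. Among endoderm markers Afp, Apoa2, Foxa1, Foxa2 and Alb (378, below the filter) were higher there than in either other wild type library. Apob (2293), Ttr (406), Cubn (217), Apoa1 (190), Hnf4a (48.7), Sox17 (43.2) and Amn (3.14) were lower there than in either. Among mesenchyme markers Col1a1, Col3a1, Dcn, Lum and Dpt were also highest there. Pdgfra (8389), Pdgfrb (2639) and Twist1 (1008) had their lowest values there. The type I collagen gene Col1a2 followed Igfbp3 in having its highest value, 129358, in library 3 labelled wild type. The part of these cell types in the levels of the members was not tested.

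Igfbp4, an inhibitory member that the protease Pappa cleaves, had the highest group means, with the smallest SD relative to the mean in both groups. Libraries 1, 2 and 3 labelled Shox2-/- had 11708, 9682 and 9549 normalized counts, against 9548, 9916 and 7135 in those labelled wild type. The groups overlapped, and library 3 labelled wild type was the lowest of the 6. In libraries 1 and 2 labelled wild type Igfbp5 had slightly more normalized counts than Igfbp4, and in library 3 labelled wild type Igfbp2 and Igfbp7 were above it per kilobase of exons. The log2 change was 0.23 (SE 0.16, 95% interval -0.14 to 0.59; limma adjusted p = 0.527), an interval that does not reach the estimate for Igfbp5. It was 0.08 without library 3 labelled wild type.

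Igfbp2, a member abundant in embryonic tissues, was high in library 3 of both groups. It had 1760, 3243 and 4378 normalized counts in libraries 1, 2 and 3 labelled Shox2-/-, against 1972, 1844 and 3480 in those labelled wild type. The groups overlapped, with library 1 labelled Shox2-/- the lowest of all. The log2 change was 0.33 (SE 0.37, 95% interval -0.53 to 1.19; limma adjusted p = 0.710), and 0.62 without library 3 labelled wild type.

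Igfbp7 was set apart by library 3 of each group. It was at 394.5, 441 and 1045 normalized counts in libraries 1, 2 and 3 labelled Shox2-/-, against 599, 590.5 and 2207 in those labelled wild type. Library 3 labelled wild type was 3.71 times the mean of the other two. The log2 change of -0.70 (SE 0.58, 95% interval -2.05 to 0.65; limma adjusted p = 0.599) became -0.07 without that library. Polr2b, which shares its 3′ end, was at 5551 to 6607 in libraries labelled Shox2-/- and 4709 to 5092 in those labelled wild type.

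Igfbp6 was close to the limit of detection and did not pass the filter. It had 8.65, 6.26 and 3.70 normalized counts (5, 7 and 5 reads) in libraries 1, 2 and 3 labelled Shox2-/-, against 6.64, 3.91 and 32.97 (4, 6 and 42 reads) in those labelled wild type. Library 3 labelled wild type was above the other 5, which overlapped.

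**Figure D2:**
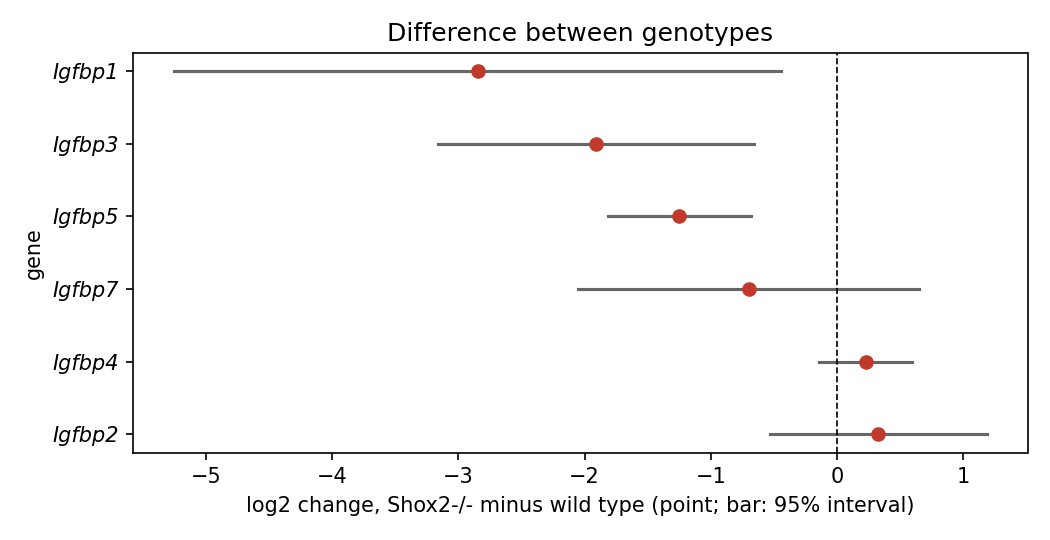
Log2 change (labelled Shox2-/- minus labelled wild type, limma on log2(normalized count + 1)) of the 6 members that passed the filter, with 95% intervals. The unadjusted intervals of Igfbp1, Igfbp3 and Igfbp5 lie below 0, and those of Igfbp7, Igfbp4 and Igfbp2 include 0.

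Library 3 labelled Shox2-/- shares the title number Diff9 with libraries 1 and 2 labelled wild type, and the meaning of that number is not stated. Set against the mean of those 2 libraries, with no test possible for 1 library, the ratio was 0.2895 for Igfbp5, 0.461 for Igfbp3 and 0.107 for Igfbp1. It was 0.981 for Igfbp4, 2.295 for Igfbp2 and 1.76 for Igfbp7. The 3 members without overlap had to be lower here, because their lack of overlap already covers these libraries, so this adds no support. Igfbp7 went the other way than in the full comparison. Igfbp4 was nearly level here, on the lower side, against a log2 change of 0.23 in the full comparison.

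To compare levels between members, each normalized count was divided by the gene's annotated exon length in kilobases. On this scale Igfbp4 averaged 2335 ± 274 (SD, n = 3) per kilobase in libraries labelled Shox2-/- and 2008 ± 342 (SD, n = 3) in those labelled wild type, and it lay above 97.8% of tested genes in libraries labelled Shox2-/- and 97.6% in those labelled wild type. In libraries labelled Shox2-/- the order of mean levels was Igfbp4, Igfbp2 (1693 ± 711), Igfbp5 (598 ± 155), Igfbp7 (518 ± 300), Igfbp3 (223 ± 106), Igfbp1 (17.4 ± 22.7) and Igfbp6 (5.58 ± 2.23), each ± SD with n = 3. In libraries labelled wild type it was Igfbp4, Igfbp5 (1424 ± 353), Igfbp2 (1317 ± 493), Igfbp7 (937 ± 770), Igfbp3 (883 ± 620), Igfbp1 (63.7 ± 16.0) and Igfbp6 (13.1 ± 14.4). In libraries labelled Shox2-/-, the neighbours Igfbp4 and Igfbp2, Igfbp5 and Igfbp7, Igfbp7 and Igfbp3, and Igfbp1 and Igfbp6 differed by less than the larger of their SDs. In libraries labelled wild type this held for Igfbp5 and Igfbp2, Igfbp2 and Igfbp7, and Igfbp7 and Igfbp3. The order depends on the length used. Per kilobase of coding sequence, Igfbp4 was again first in both groups (13534 ± 1588 in libraries labelled Shox2-/- and 11636 ± 1983 in those labelled wild type, SD, n = 3). Igfbp5 then came before Igfbp2 in libraries labelled Shox2-/- as well (4416 ± 1143 and 3417 ± 1435), followed by Igfbp3 (796 ± 380) and Igfbp7 (668 ± 387). In libraries labelled wild type Igfbp5 (10520 ± 2605) was followed by Igfbp3 (3156 ± 2215), Igfbp2 (2658 ± 995) and Igfbp7 (1206 ± 991). Per kilobase of exons, Igfbp5 lay above 87.3% of tested genes in libraries labelled Shox2-/- and 96.2% in those labelled wild type, and Igfbp3 above 66.3% in libraries labelled Shox2-/- and 92.7% in those labelled wild type.

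Shares of the summed value per kilobase of the 7 members in the same library do not depend on scaling between libraries. Mean shares of Igfbp4 and Igfbp2 were larger and those of Igfbp5 and Igfbp3 smaller in libraries labelled Shox2-/-. With exon lengths the groups did not overlap for Igfbp3, and with coding lengths they did not for Igfbp3, Igfbp4 and Igfbp5. With exon lengths Igfbp5 held 16.0%, 10.6% and 7.70% in libraries 1, 2 and 3 labelled Shox2-/-, against 26.9%, 27.7% and 12.7% in those labelled wild type. Library 3 labelled wild type lay inside the range of those labelled Shox2-/-, and the exact two-sided permutation p was 0.2. With coding lengths Igfbp5 held 23.9%, 18.5% and 15.3% in libraries labelled Shox2-/-, against 40.4%, 41.0% and 26.0% in those labelled wild type, without overlap (exact permutation p = 0.1). Whether Igfbp5 separates the groups as a share thus depends on the length. With exon lengths Igfbp3 held 2.24%, 6.07% and 3.96% in libraries labelled Shox2-/-, against 9.29%, 8.36% and 19.9% in those labelled wild type, without overlap (exact permutation p = 0.1, the smallest that 3 against 3 libraries allow). With exon lengths Igfbp4 held 55.0%, 41.9% and 35.3% in libraries labelled Shox2-/-, against 36.3%, 37.7% and 20.2% in those labelled wild type (exact permutation p = 0.3). With coding lengths Igfbp4 held 64.6%, 57.7% and 55.0% in libraries labelled Shox2-/-, against 42.8%, 43.7% and 32.4% in those labelled wild type, without overlap (exact permutation p = 0.1). Igfbp2, which overlapped with both lengths, held 19.8%, 33.6% and 38.7% in libraries labelled Shox2-/-, against 17.9%, 16.8% and 23.5% in those labelled wild type (exact permutation p = 0.2). Shares were tested for all 7 members with both lengths, and none could have passed 0.05 in this design.

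**Figure D3:**
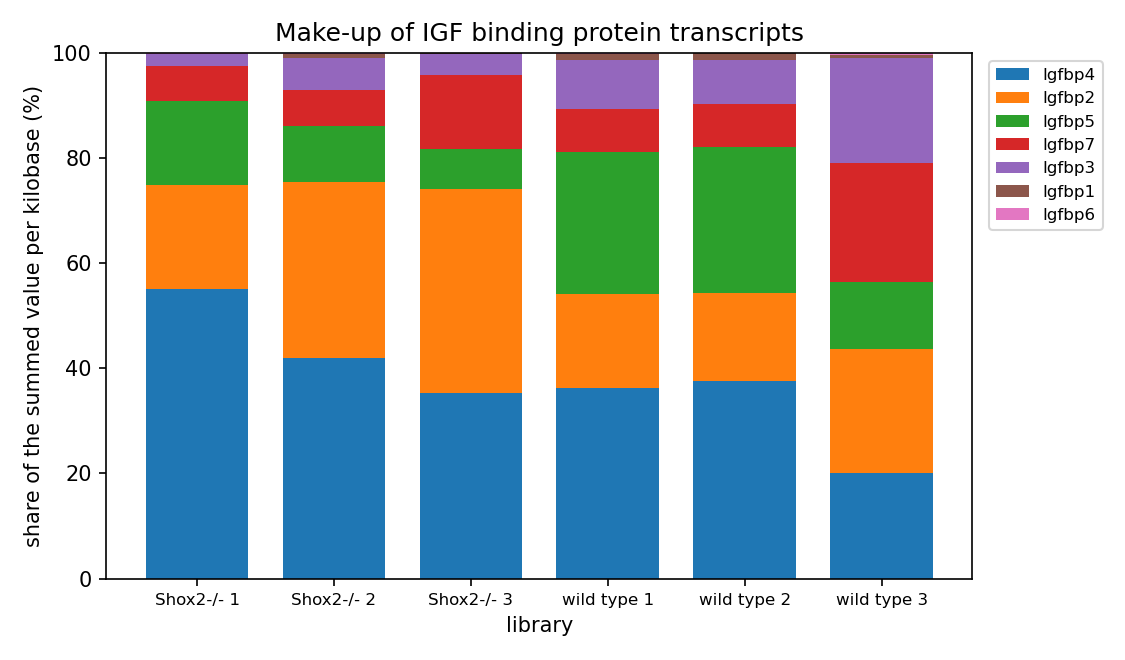
Share (%) of each member in the summed value per kilobase of exons of the 7 IGF binding protein genes, 1 bar per library, with the libraries labelled Shox2-/- on the left. Igfbp5 has its largest bars, 26.9% and 27.7%, in wild type libraries 1 and 2, and reaches at most 16.0% elsewhere, and Igfbp3 and Igfbp7 take 19.9% and 22.8% in library 3 labelled wild type.

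The Igfbp5 to Igfbp4 ratio was picked once the levels of both genes were known. Per kilobase it was 0.2905, 0.252 and 0.218 in libraries 1, 2 and 3 labelled Shox2-/-, against 0.741, 0.736 and 0.630 in those labelled wild type, a difference of -1.48 on the log2 scale (exact two-sided permutation p = 0.1, the smallest possible). In contrast to their levels taken singly, library 3 labelled wild type was here close to libraries 1 and 2. For the adjacent pair on chromosome 1, the Igfbp5 to Igfbp2 ratio was 0.809, 0.3145 and 0.199 in libraries labelled Shox2-/-, against 1.5, 1.655 and 0.540 in those labelled wild type, and the groups overlapped (exact permutation p = 0.2). For the pair on chromosome 11, the Igfbp1 to Igfbp3 ratio overlapped as well (0.0105 to 0.137 in libraries labelled Shox2-/- and 0.0283 to 0.148 in those labelled wild type, exact permutation p = 0.6).

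Coding genes next to the members were compared in the same way, and 0 of them passed the adjusted threshold. Rpl37a, a ribosomal protein gene 110.7 kb before Igfbp2, had a log2 change of 0.10 (SE 0.14), and Adcy1, an adenylyl cyclase gene 19.3 kb before Igfbp1, had one of -0.23 (SE 0.18). Tensin genes, which encode adaptor proteins of focal adhesions, lie next to Igfbp3, Igfbp4 and Igfbp5. Tns1, 1035 kb past Igfbp5, had a log2 change of -0.14 (SE 0.29), and Tns4, 11.3 kb past Igfbp4, one of 0.50 (SE 0.48). Tns3, 1218 kb past Igfbp3, was at 1654, 1984 and 1941 normalized counts in libraries labelled Shox2-/-, against 3346, 3220 and 3512 in those labelled wild type. Its groups did not overlap, and its log2 change was -0.86 (SE 0.11; limma adjusted p = 0.118). Spryd3 before Igfbp6 (-0.49, SE 0.13) and the adhesion receptor gene Adgrl3 past Igfbp7 (-0.79, SE 0.22) also had libraries labelled Shox2-/- below all labelled wild type, while Top2a before Igfbp4 (0.22, SE 0.12) and Noa1 before Igfbp7 (0.37, SE 0.16) had them above.

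Among the ligands and receptors of the pathway, Igf2 and both IGF receptor genes were higher in all 3 libraries labelled Shox2-/-. Igf2, the fetal ligand, was at 91343, 85699 and 118788 normalized counts in libraries 1, 2 and 3 labelled Shox2-/-, against 63286, 65762 and 47457 in those labelled wild type (log2 change 0.75, SE 0.20, limma adjusted p = 0.238). Of 7 receptors and adaptors 4 were higher and 3 lower, with 0 past the adjusted threshold and 2 at an unadjusted limma p under 0.05. These 2 were the Igf2 clearance receptor gene Igf2r (0.50, SE 0.14) and the signalling receptor gene Igf1r (0.27, SE 0.10). The insulin receptor gene Insr (-0.18, SE 0.10) had libraries labelled Shox2-/- below all labelled wild type, and the adaptor gene Irs4 (-0.36, SE 0.345) overlapped. Igf1 overlapped, at 182, 474 and 289 in libraries labelled Shox2-/- and 194, 218 and 1262 in those labelled wild type.

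Summed per kilobase of exons, the 7 members came to 4817, 5231 and 6122 in libraries labelled Shox2-/-, against 5959, 5960 and 8017 in those labelled wild type, and the groups overlapped (exact permutation p = 0.3). On other scales, added after the values were seen, the sum was lower in every library labelled Shox2-/-. Per kilobase of coding sequence it was 23797, 22022 and 22796 in libraries labelled Shox2-/-, against 29278, 29789 and 28880 in those labelled wild type (exact two-sided permutation p = 0.1, the smallest possible). As plain normalized counts it was 18836, 17747 and 18576 in libraries labelled Shox2-/-, against 23588, 23952 and 24042 in those labelled wild type (exact permutation p = 0.1). The overlap of the sums is therefore specific to exon lengths among the 3 scales computed. Igf2 per kilobase of exons divided by this sum, a ratio chosen after values were seen, was 3.31, 2.86 and 3.39 in libraries labelled Shox2-/-, against 1.86, 1.93 and 1.03 in those labelled wild type, without overlap (exact two-sided permutation p = 0.1, the smallest possible). With coding lengths this ratio was 6.70, 6.79 and 9.09 in libraries labelled Shox2-/-, against 3.77, 3.85 and 2.87 in those labelled wild type. Igf2 alone already lay entirely higher in libraries labelled Shox2-/-, and the sum with coding lengths entirely lower. The ratio with coding lengths therefore had to separate, and adds no support. With exon lengths the ratio also contains the separation of Igf2. All these values are transcript levels, and protein was not measured.

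**Figure D4:**
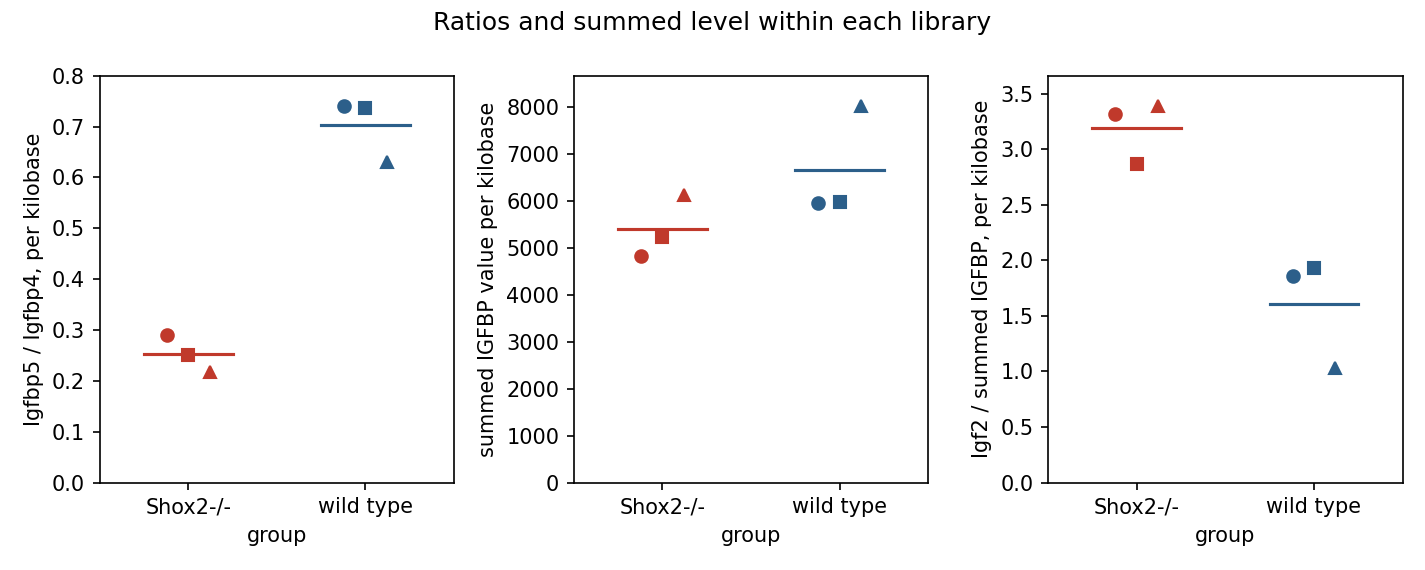
Igfbp5 to Igfbp4 ratio (left), summed value per kilobase of exons of the 7 IGF binding protein genes (middle) and ratio of Igf2 to that sum (right), with 1 point per library, lines at group means, libraries labelled Shox2-/- in red and those labelled wild type in blue. Both ratios separate the groups, at 0.218 to 0.2905 and 0.630 to 0.741 for Igfbp5 to Igfbp4, and the sums overlap on this exon scale, though not per kilobase of coding sequence or as plain normalized counts.

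Of 9 genes that cut or protect the binding proteins, 6 passed the filter, all 6 with overlapping groups, 2 higher and 4 lower, with 0 past the adjusted threshold and 0 at an unadjusted limma p under 0.05, and their median log2 change was -0.12. Pappa, the metalloprotease that cuts Igfbp4 and Igfbp5, was at 317, 528 and 394 normalized counts in libraries labelled Shox2-/-, against 561, 544 and 462 in those labelled wild type (log2 change -0.36, SE 0.20). Its inhibitor gene Stc1 (-0.69, SE 0.45) and the protease genes Htra1 (0.37, SE 0.52) and Adam12 (0.26, SE 0.22) overlapped between groups. Pappa2, a related protease gene below the filter and named after its values were seen, was at 6.92, 5.36 and 5.18 in libraries labelled Shox2-/-, against 28.2, 7.17 and 56.5 in those labelled wild type, without overlap.

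Of 13 relatives that share the IGFBP amino-terminal domain, 10 passed the filter and 9 of these were lower in libraries labelled Shox2-/-, with a median log2 change of -0.37, 0 past the adjusted threshold and 2 at an unadjusted limma p under 0.05. Ccn1, a matricellular protein gene listed as Cyr61, was at 5149, 7507 and 8256 normalized counts in libraries labelled Shox2-/-, against 9253, 8711 and 10447 in those labelled wild type (log2 change -0.47, SE 0.19). Ccn4, a Wnt-induced matricellular gene listed as Wisp1, was at 1628, 2670 and 3183 in libraries labelled Shox2-/-, against 3341, 3325 and 7258 in those labelled wild type (log2 change -0.85, SE 0.36). The groups overlapped for Htra3, whose log2 change was -0.78 (SE 0.45), and Igfbpl1, the IGFBP-like gene, at -0.50 (SE 0.39).

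Over the 6 libraries, the genes with a mean of at least 100 normalized counts whose log2 levels ran most alike with each member were sought among 11854 genes. With so few libraries, of which 2 are nearly alike, the correlations are only a description. For Igfbp5 these were Tgfb2, a secreted TGF-beta ligand (Pearson r = 0.9996), the DNA repair protease gene Sprtn (0.9851) and Mettl2 (0.9825). Tgfb2 was at 3163, 2736 and 2561 normalized counts in libraries labelled Shox2-/-, against 4287, 4436 and 3570 in those labelled wild type, the same order of libraries as Igfbp5. For Igfbp3 they were Plpp5 (0.9961), Mtus1 (0.9956) and the collagen glycosyltransferase gene Colgalt1 (0.9955). For Igfbp1 they were 4930447C04Rik (0.9981), the Y-linked gene Eif2s3y (0.9962) and P3h4, a gene of collagen modification (0.9942). Eif2s3y was at 100.3, 662 and 225 in libraries labelled Shox2-/-, against 1011, 1021 and 817 in those labelled wild type. Igfbp4 was followed by Zfp462 (0.997), Zdhhc7 (0.995) and Dpf2 (0.994), Igfbp7 by Pygb (0.999), Fyn (0.993) and Xpa (0.991), and Igfbp2, with the loosest matches, by Gm10146 (0.966), Tmem181a (0.965) and Lyrm4 (0.962). Between members, the highest correlation was that of Igfbp1 with Igfbp3 (0.784), and the lowest was that of Igfbp3 with Igfbp4 (-0.921).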

How the data were processed

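RNA sequencing on an Illumina HiSeq 2000 from 500 ng of total RNA gave 3 libraries labelled Shox2-/- and 3 labelled wild type, per the labels' protocols. The submitters' processing notes name the tools HTSeq, BWA, CASAVA 1.8.2 and DESeq2 1.14.0 and the build mm10, without roles. The deposited values are gene counts divided by 1 size factor per library. This was worked out from the values, of which 100% were whole multiples of 1 step per library within 0.1 reads. Values were taken to log2(value + 1) and tested in R 4.3.3 with limma 3.58.1 (empirical Bayes with trend, 1 term for genotype, two-sided, Benjamini-Hochberg adjustment over the 17034 genes that reached 10 in 3 or more libraries). A fold change on this scale understates that of low genes. Shares and ratios were tested by exact permutation over the 20 splits of libraries. The design named limma for such values in place of a count model. Limma was checked on simulated counts with an equal spread in all libraries, unlike these data, where library 3 labelled wild type stood apart. The permutation tests were not checked in this way. Exon and coding lengths and positions came from GENCODE M21, in which 30484 of 30631 IDs were found. Named genes were the members, Shox2 and Alcam, and up to 4 genes of each pathway list by lowest p. The nearest tested coding gene on each side and the 3 genes most alike over the libraries were also named. Members and lists were chosen with earlier results of these data known. Intervals of single values cover counting error only. The insulin genes Ins1 and Ins2 were not analysed here.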

Additional observations from a re-analysis of the deposited data

How the results depend on the processing

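The directions of Igfbp1, Igfbp2, Igfbp3, Igfbp4 and Igfbp5 held in all 15 alternatives (pseudocounts 0.5 and 5, no filter or a filter of 50, scaling by library totals or upper quartiles, a term for Diff9, wild type libraries 1 and 2 averaged, voom with sample quality weights, and each library left out). Voom with sample quality weights was the exception to the count of 0 calls, with 1 member called lower (Igfbp5) and 1 member, Igfbp2, higher at an unadjusted limma p under 0.05. It also turned the log2 change of Igfbp7 to 0.087. The cause was not tested. Leaving out a library gave 3 to 4 members with all libraries labelled Shox2-/- below all labelled wild type, the added 1 being Igfbp7 without library 3 labelled Shox2-/-. It gave 0 to 1 above, the 1 being Igfbp4 without library 2 labelled wild type. Groups separate more easily with fewer libraries, and the share over all genes in these settings is not given here. The added members are therefore not read as results. Coding in place of exon lengths kept every share's direction but ended the overlap of Igfbp4 and Igfbp5. The shares of Igfbp6 and Igfbp7 turned from -0.0685 and -3.81 percentage points to 0.0282 and 1.03 without library 3 labelled wild type, their lowest leave-one-out values being -0.127 and -6.26. Unadjusted limma p stayed under 0.05 in 15 of 15 alternatives for Igfbp5 and Igfbp3 and in 9 for Igfbp1. Over all genes, the calls came to 303 with voom weights, 51 without library 2 labelled Shox2-/- and 2 without a filter, against 0. The planned count-model tests were not run, because the deposited values are normalized and the reads recovered from them rest on an estimated step. Voom with sample quality weights and the Poisson intervals did use these recovered reads, so they rest on the same step. No paired analysis was possible because the groups share only 1 title number. Depth limits Igfbp1 and Igfbp6.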
